A study of Saccharomyces cerevisiae with 9 samples.

Results

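Cardiolipin and phosphatidylinositol are both made from CDP-diacylglycerol, and 7 yeast genes of these branches were followed here across 3 strains of Saccharomyces cerevisiae. They are PGS1, GEP4, CRD1 and TAZ1 of the cardiolipin branch and PIS1, ITR1 and INM1 of the phosphatidylinositol branch. The genes were chosen by their role, with earlier results of these data known. Each was read by 1 probe set that the platform annotation assigns to that gene alone. They are 7 of 5449 S. cerevisiae genes measured.

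The strains were REF, the reference, D12, a recombinant carrying the D12-desaturase of the fungus M. rouxii (Mucor rouxii), and D126, which carries that enzyme together with the D6-desaturase of the same fungus. A D12-desaturase turns oleic into linoleic acid and a D6-desaturase turns linoleic into gamma-linolenic acid, polyunsaturated fatty acids that this yeast does not make itself. All 3 strains grew in chemostats with limiting glucose (dilution rate 0.1 per h), at steady state for 5 or more residence times, and total RNA of each was hybridised to 3 Affymetrix arrays. Which parent strain, vector and promoter were used is not given in the sources used here. Nothing in the labels ties the replicates to separate cultures. The p-values therefore reflect the variation among these arrays, which may be technical.

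In mitochondria, Pgs1 joins CDP-diacylglycerol and glycerol-3-phosphate to phosphatidylglycerolphosphate, Gep4 removes its phosphate to give phosphatidylglycerol, and Crd1 condenses that lipid with CDP-diacylglycerol to cardiolipin, the signature lipid of the inner membrane. Taz1, the yeast tafazzin, then exchanges acyl chains, and unsaturated chains are typical of mature cardiolipin. In the other branch Pis1 joins CDP-diacylglycerol and inositol to phosphatidylinositol, the parent of phosphoinositides, inositol sphingolipids and GPI anchors. Inositol comes from the medium through the transporter Itr1, or is made from glucose 6-phosphate by inositol-3-phosphate synthase (INO1) and the monophosphatase Inm1.

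GEP4 and PIS1 rose in the strain with both desaturases. GEP4 was 1.33-fold higher in D126 than in REF and PIS1 1.18-fold. Both were also higher in D126 than in D12, by 1.22-fold and 1.24-fold. Changes of PGS1, CRD1, TAZ1, ITR1 and INM1 did not pass the test in any comparison in the reported fit, with strain alone and unweighted arrays. With the replicate number as a block on the REF and D126 arrays, PGS1, ITR1 and INM1 were called as well, as given below. That blocked fit was chosen after the data were seen. None of the 7 genes passed between D12 and REF, where 0% of all genes did. Of all genes, 21.5% were called between D126 and REF and 22.0% between D126 and D12. The call of PIS1 against REF held in 4 of the 9 fits that left out 1 array.

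Values are log2 expression values as normalized by the authors with RMA, which draws all arrays to a common distribution, so a change of total RNA per cell would not be seen. Levels of different genes are not set against each other, because each probe set has its own response. Differences are log2 differences with their standard error (SE) from a limma model of strain fitted to all 9 arrays. Calls were made at 0.05 on p-values adjusted by the Benjamini-Hochberg method over the 5449 genes, and levels are mean ± SD of 3 arrays. The 7 means over all arrays lay 4.38 to 8.50 log2 units above the background limit of 5.64, taken from probe sets of genes outside the S. cerevisiae gene table.

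The arrays themselves differed as follows. On the first principal component of all genes (54.7% of the variance) the D126 arrays were separate from REF and D12. On the second (18.4%), D12 replicate 3 had a score of -8.92, where the other 8 arrays ran from -2.23 to 3.92. This array held the highest or the lowest value of all 9 arrays for 5 of the 7 genes and for 44.1% of all genes. D126 replicate 1 held such a value for 2 of the 7 genes and for 41.8% of all genes. For D126 replicates 2 and 3 the shares of all genes were 15.6% and 18.4%. Control transcripts had mean differences between their 3′ and 5′ probe sets of 1.26 to 1.33 in REF, 1.24 to 1.29 in D12 and 1.25 to 1.33 in D126, so this measure of RNA quality overlapped between strains. Markers of mating type moved with strain: of 6 MATa markers 5 rose in D126 against REF (BAR1 by 0.92, MFA2 by 0.62, MFA1 by 0.49), and the log2 of their summed level was 14.36 to 14.46 in REF, 14.35 to 14.50 in D12 and 14.84 on each D126 array. Of 3 MATalpha markers 1 rose, MF(ALPHA)1 by 0.52, with summed levels of 9.63 to 9.74 in REF, 9.70 to 9.73 in D12 and 9.60 to 9.67 in D126. Of 7 sporulation markers 1 fell, SPR3 by 0.60, with summed levels of 11.06 to 11.09, 11.08 to 11.43 and 10.96 to 11.04 in the same order. No marker of these lists was at or below the background limit. Their part in the results below was not tested.

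**Figure D1:**
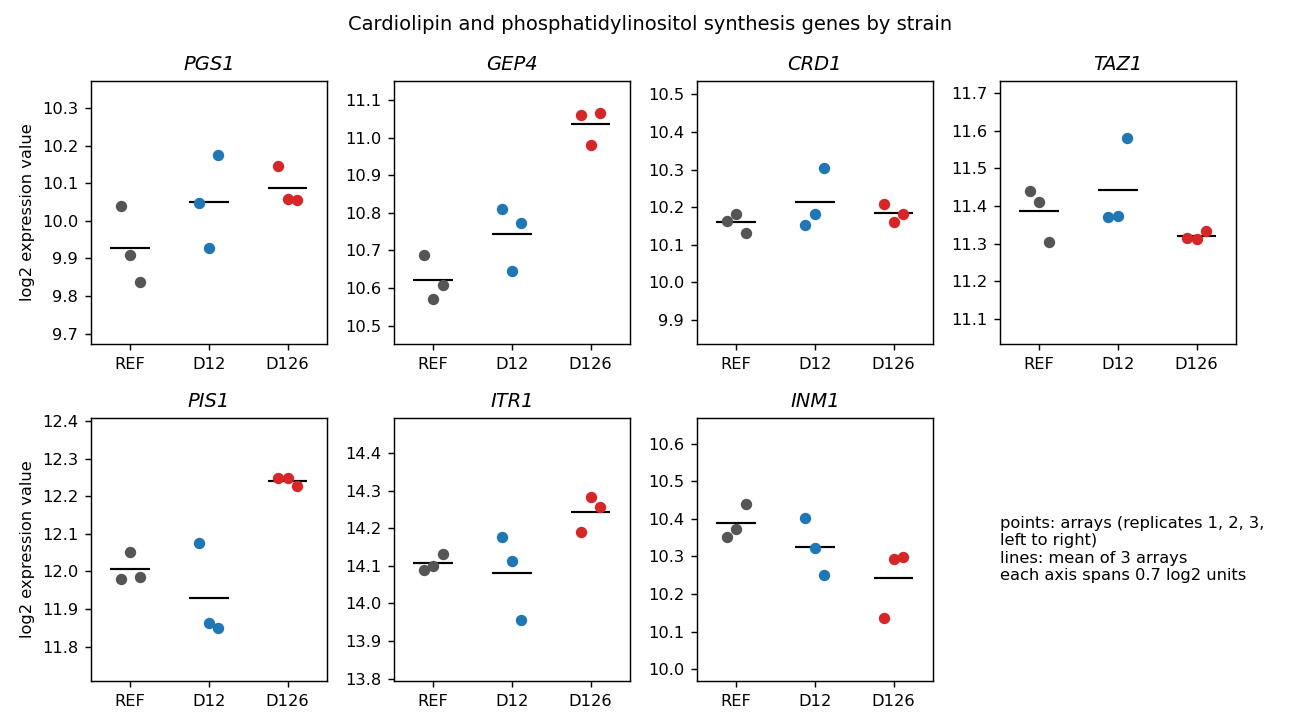
Log2 expression value (vertical axis, 0.7 units in every panel) of each gene on each array, by strain (horizontal axis), with lines at the mean of 3 arrays. GEP4 and PIS1 lie highest on the 3 D126 arrays, with no overlap with REF or D12, while the CRD1 values of the strains overlap.

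The cardiolipin branch begins with PGS1, whose product makes phosphatidylglycerolphosphate in the committed step. PGS1 stood at 10.04, 9.91 and 9.84 on REF replicates 1 to 3, at 10.05, 9.93 and 10.18 on the D12 arrays, and at 10.15, 10.06 and 10.06 on the D126 arrays. All 3 D126 values lay above the 3 REF values, by a narrow margin over REF replicate 1, and D12 spanned most of the range of both. Its difference between D126 and REF was 0.16 (SE 0.07, adjusted p = 0.137 by limma), with a 95% interval of 0.00 to 0.32. With the replicate block on the REF and D126 arrays it was called (adjusted p = 0.0238). D12 differed from REF by 0.12 (interval -0.03 to 0.28, adjusted p = 0.832), and D126 from D12 by 0.04 (interval -0.12 to 0.19, adjusted p = 0.745). PGS1 had the widest spread within strains among the 7 genes, a pooled SD of 0.097, where the median over all genes was 0.060.

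GEP4 encodes the phosphatase of the following step and had the largest difference among the 7 genes. Its values were 10.69, 10.57 and 10.61 in REF, 10.81, 10.65 and 10.77 in D12, and 11.06, 10.98 and 11.07 in D126. Every D126 array was above every array of the other strains, and D12 overlapped REF through its replicate 2. From REF to D126 the mean went from 10.62 ± 0.06 to 11.04 ± 0.05, a log2 difference of 0.41 (SE 0.05, adjusted p = 0.000833 by limma), which ranks GEP4 at 133 of 5449 genes by p. Against D12 the difference was 0.29 (SE 0.05, adjusted p = 0.00471), at rank 339. Leaving out any single array kept GEP4 called in both comparisons, with differences of 0.39 to 0.45 from REF and 0.24 to 0.33 from D12.

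For D12 alone, GEP4 lay 0.12 above REF (SE 0.05), with a 95% interval of 0.00 to 0.24. The unadjusted p of 0.043 became 0.817 after adjustment, so no change of GEP4 was called for the D12-desaturase by itself. The order of the means was REF, D12, D126, and the values of REF and D12 overlapped.

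CRD1, the cardiolipin synthase gene, was the flattest of the 7 genes. It stood at 10.16, 10.18 and 10.13 in REF, at 10.15, 10.18 and 10.30 in D12, and at 10.21, 10.16 and 10.18 in D126. Apart from D12 replicate 3, the highest, the other 8 arrays spanned 0.075. The strain with both desaturases differed from REF by 0.02 (SE 0.04, adjusted p = 0.723), and its 95% interval ran from -0.07 to 0.12. CRD1 in D12 differed from REF by 0.05 (interval -0.04 to 0.15), and D126 differed from D12 by -0.03 (interval -0.13 to 0.07).

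TAZ1 encodes the transacylase that sets the acyl chains of cardiolipin, the step of this branch that handles fatty acid composition directly. REF arrays read 11.44, 11.41 and 11.30, D12 arrays 11.37, 11.37 and 11.58, and D126 arrays 11.31, 11.31 and 11.33. The D126 arrays spanned 0.023 and lay below all D12 arrays, but inside the range of REF. TAZ1 in D126 differed from REF by -0.07 (SE 0.06, adjusted p = 0.474, interval -0.20 to 0.07) and from D12 by -0.12 (adjusted p = 0.181, interval -0.26 to 0.01). Without D12 replicate 3, the highest array, the difference between D12 and REF was -0.01 in place of 0.06, and neither was called.

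In the phosphatidylinositol branch PIS1, the gene of the synthase itself, rose with both desaturases. PIS1 read 11.98, 12.05 and 11.99 in REF, 12.07, 11.86 and 11.85 in D12, and 12.25, 12.25 and 12.23 in D126. The D126 arrays were tightly grouped above all 6 others, whereas D12 replicate 1 lay above REF and D12 replicates 2 and 3 below it. From 12.01 ± 0.04 in REF the mean went to 12.24 ± 0.01 in D126, a difference of 0.24 (SE 0.06, adjusted p = 0.0189 by limma). Against D12, at 11.93 ± 0.13, D126 was 0.31 higher (SE 0.06, adjusted p = 0.00566).

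The 2 comparisons of PIS1 were not equally firm. Its call against D12 held whichever array was left out, with differences of 0.27 to 0.39. Its call against REF was lost without REF replicate 1 (adjusted p = 0.0636), REF replicate 3 (0.0634), D126 replicate 1 (0.0546), D126 replicate 2 (0.0538) or D126 replicate 3 (0.0545), while the difference itself stayed between 0.22 and 0.26. In a fit to the REF and D126 arrays alone, without the wider D12 spread, PIS1 had the same difference with an SE of 0.03 and an adjusted p of 0.00237. D12 differed from REF by -0.08 (interval -0.21 to 0.05, adjusted p = 0.849).

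ITR1, the major inositol transporter gene, was read near the top of the scale, whose highest value was 15.51, and whether changes are compressed there was not tested. ITR1 stood at 14.09, 14.10 and 14.13 in REF, at 14.18, 14.11 and 13.96 in D12, and at 14.19, 14.28 and 14.26 in D126. All 3 D126 arrays lay above the arrays of the other strains, and D12 replicate 3 was the lowest of all. Over all 9 arrays the difference of D126 from REF was 0.14 (SE 0.05, adjusted p = 0.108) and from D12 0.16 (SE 0.05, adjusted p = 0.0648), so neither was called. Without D12 replicate 3 the difference from REF was called with the same value and an SE of 0.04 (adjusted p = 0.0221). It was called as well with array weights (0.00106) and with the REF and D126 arrays alone (0.0245, or 0.0295 with the replicate block). With the block over all 9 arrays it was not (0.163). The difference of ITR1 between D126 and D12 was called without D12 replicate 1 (0.21, adjusted p = 0.0228). Of the other settings, 15 of 19 left ITR1 uncalled against REF and 15 of 18 against D12, with adjusted p up to 0.251 and 0.175. D12 differed from REF by -0.02 (interval -0.15 to 0.10).

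INM1, which encodes an inositol monophosphatase, had the opposite sign. Its REF arrays read 10.35, 10.37 and 10.44, its D12 arrays 10.40, 10.32 and 10.25, and its D126 arrays 10.14, 10.29 and 10.30. Every D126 value was below every REF value, D126 replicate 1 was the lowest, and D12 bridged the strains. INM1 in D126 differed from REF by -0.14 (SE 0.06, adjusted p = 0.0946, interval -0.27 to -0.02), from D12 by -0.08 (interval -0.21 to 0.04), and in D12 from REF by -0.06 (interval -0.19 to 0.06). None of these was called in the reported fit to all 9 arrays. With array weights the difference from REF was -0.09 and called (adjusted p = 0.0401). In the fit to the REF and D126 arrays with the replicate block, chosen after the data were seen, the difference of -0.14 was called (0.0369). With the block over all 9 arrays it was not (0.155).

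**Figure D2:**
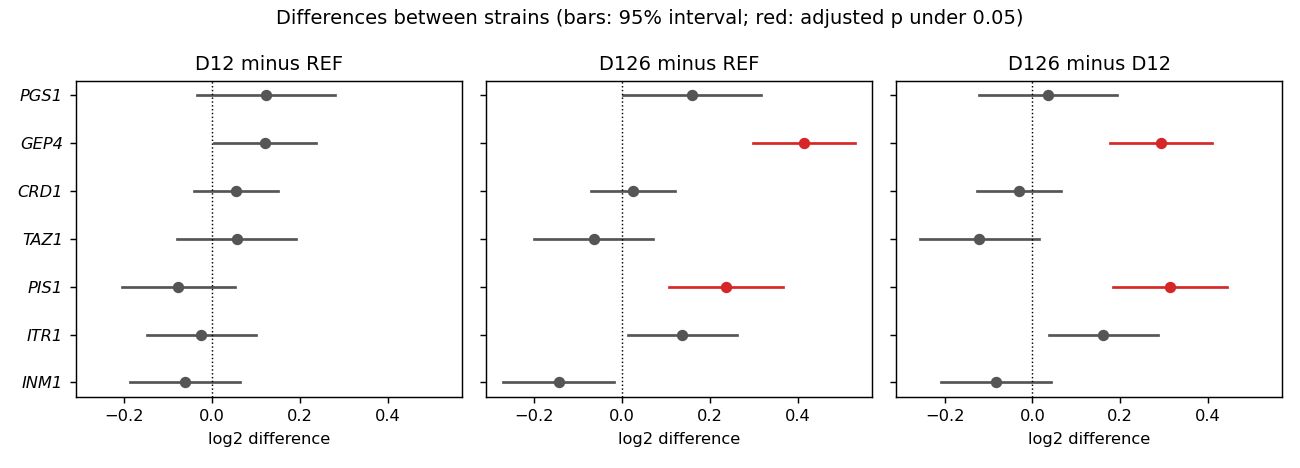
Log2 difference (horizontal axis) of each gene in the 3 comparisons between strains, with 95% intervals from limma and called genes in red. GEP4 (0.41 and 0.29) and PIS1 (0.24 and 0.31) are the called genes in both comparisons with D126, and none is red in D12 minus REF.

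Between D126 and REF, limma called 2 of the 7 genes, where 21.5% of all genes were called (8.59% higher and 12.9% lower). The median difference of the 7 genes was 0.14, against 0.00 over all genes, with 5 above 0 and 2 below. The strains did not overlap for 5 of the 7 genes, PGS1, GEP4, PIS1, ITR1 and INM1, and for 47.9% of all genes. Those 5 genes also had an unadjusted p under 0.05, as had 35.8% of all genes. REF and D126 arrays of the same number shared deviations from the means of their strains (r of 0.13 to 0.22 over genes). A fit to these 6 arrays with the replicate number as a block, chosen after seeing this, called the same 5 genes in the directions above. That fit called 1603 of all 5449 genes, against 1173 in the reported fit. In that blocked fit the adjusted p was 0.00592 for PIS1 and 0.00141 for GEP4.

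Between D126 and D12, 2 of the 7 genes were called, again GEP4 and PIS1, where 22.0% of all genes were called (7.32% higher and 14.7% lower). That split moved with scaling, from 399 higher and 801 lower to 593 and 630 with quantile normalization and 536 and 703 with median centring of the arrays. The median difference was 0.04, against -0.02 over all genes. The values of 4 of the 7 genes did not overlap, those of GEP4, TAZ1, PIS1 and ITR1, against 38.4% of all genes. GEP4, PIS1 and ITR1, 3 of the 7, had an unadjusted p under 0.05, as had 36.0% of all genes. The 2 comparisons share the D126 arrays. Between D12 and REF 0 of the 7 genes and 0% of all genes were called by limma. At an unadjusted p under 0.05 there was 1 of the 7, GEP4, and 5.98% of all genes. No gene of the 7 was without overlap there, against 10.2% of all genes, and the largest difference was 0.12.

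**Figure D3:**
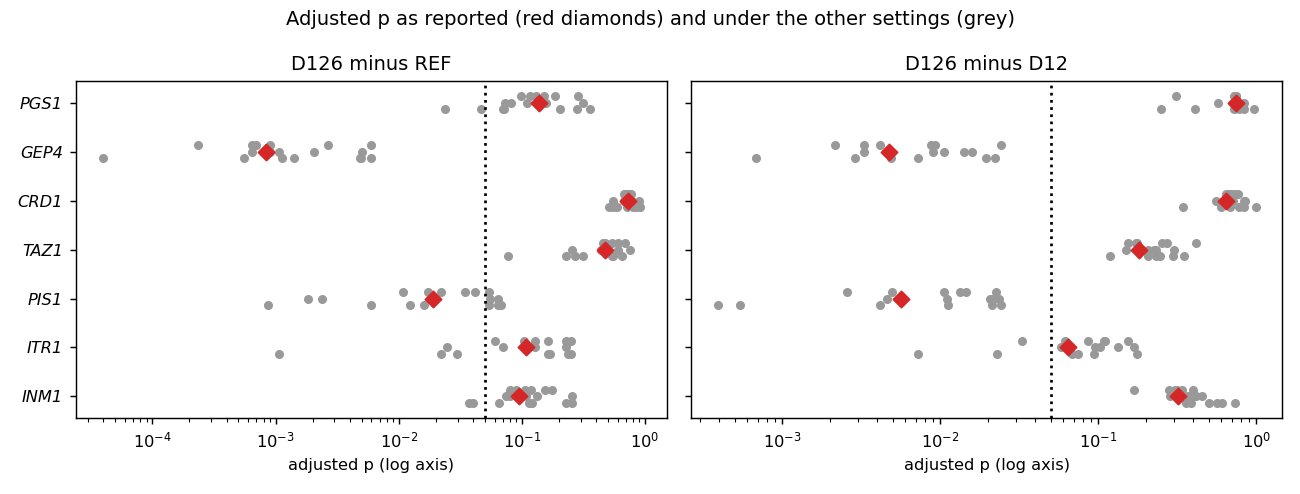
Adjusted p (horizontal log axis) of each gene in the 2 comparisons with D126, as reported (red diamonds) and under each other setting of the analysis (grey points), with the threshold of 0.05 dotted. GEP4 stays left of the threshold in both panels, PIS1 crosses it in D126 minus REF, and CRD1 and TAZ1 stay right of it.

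Over the 9 arrays, the profiles of genes were compared by the root mean square (RMS) of their log2 differences, each gene centred on its own mean. Nearest to GEP4 were SOH1, a Mediator subunit (RMS 0.043), TOM20, a receptor of the mitochondrial import machinery (0.044), FAA3, an acyl-CoA synthetase (0.045), the G1 cyclin gene CLN1 (0.048) and REX2, an RNA exonuclease (0.051). Their differences between D126 and REF ran from 0.33 to 0.38. Since genes were picked by likeness on the same 9 arrays, that they differ between strains as GEP4 and PIS1 do follows from the choice. Nearest to PIS1 was SLC1 (RMS 0.027), the acyltransferase that makes phosphatidic acid, the precursor of CDP-diacylglycerol. SLC1 read 12.06, 12.08 and 12.01 in REF, 12.09, 11.96 and 11.87 in D12 and 12.32, 12.28 and 12.28 in D126, so it shared with PIS1 the high replicate 1 of D12. The chaperone gene SCJ1 (0.032), MHT1, a methyltransferase of S-methylmethionine (0.036), the phospholipid flippase gene DNF2 (0.037) and KEL3 (0.039) followed. Of these, MHT1, DNF2 and KEL3 were called in D126 against REF, with differences of 0.18, 0.21 and 0.22. MHT1 lost its call without REF replicates 1 or 3 or any single D126 array, and DNF2 and KEL3 lost theirs without any single REF or D126 array or D12 replicate 2, with adjusted p up to 0.137, 0.118 and 0.122.

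**Figure D4:**
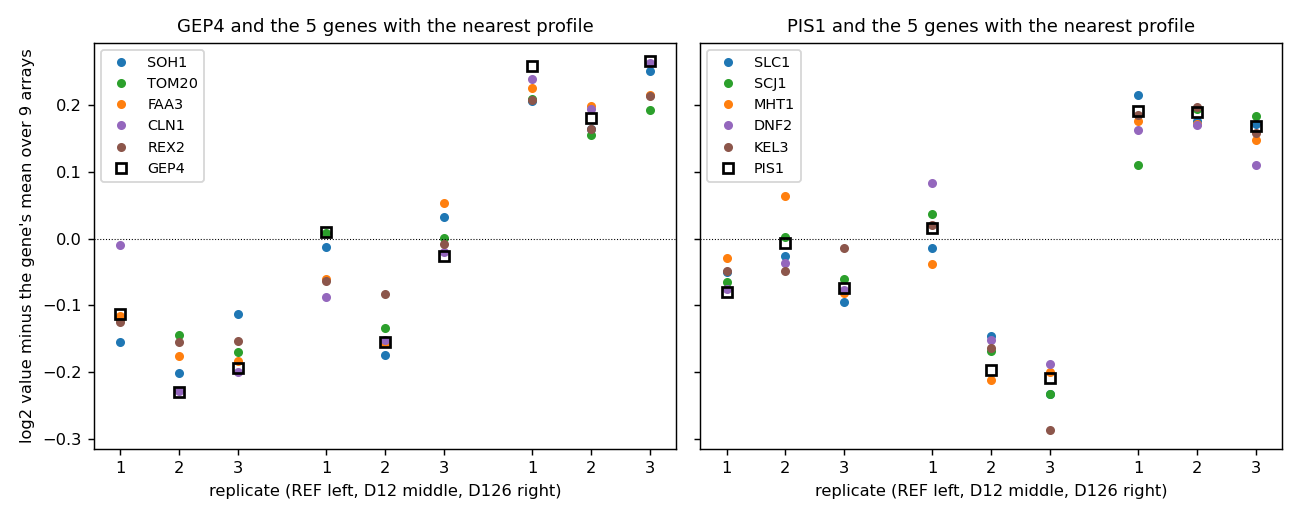
Log2 value minus the gene's mean over 9 arrays (vertical axis) for GEP4 (left) and PIS1 (right), open squares, and the 5 genes with the nearest profile, on the arrays of REF, D12 and D126 (horizontal axis). The D126 arrays are high in both panels, and D12 replicates 2 and 3 are the low arrays of the PIS1 panel.

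The 7 genes did not share a profile. The closest to each other were CRD1 and TAZ1, both uncalled (RMS 0.055), then PGS1 and CRD1 (0.081) and PIS1 and ITR1 (0.082). GEP4 and INM1 were the farthest apart (0.247). On the chromosome GEP4 (YHR100C) lies next to TRA1 (YHR099W), a cofactor of histone acetyltransferase complexes on the opposite strand. TRA1 rose as well, from 11.16 ± 0.08 in REF to 11.45 ± 0.05 in D126 (difference 0.30, adjusted p = 0.00608). BIG1, on the other side of GEP4, differed by -0.07 (adjusted p = 0.178). The measured neighbours of PIS1, MRD1 and RGC1, differed by -0.07 and -0.04 and were not called.

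The related genes are described from here by list in D126 against REF, where 21.5% of all genes were called. A list whose share is near that value gives no result about the list. Of 8 genes for the supply of CDP-diacylglycerol, the substrate of both branches, 3 rose and 1 fell (50% called, median 0.10). SCT1, a glycerol-3-phosphate acyltransferase of the entry step, rose from 10.97 ± 0.02 to 11.18 ± 0.05 (adjusted p = 0.00599), and SLC1 rose by 0.24 (adjusted p = 0.0112). The glycerol-3-phosphate dehydrogenase genes went opposite ways. GPD1 fell by 0.24 (adjusted p = 0.00371), and GPD2 rose by 0.76 (adjusted p = 0.0181), a call lost without REF replicate 1 (0.0623), REF replicate 2 (0.0699) or D126 replicate 1 (0.0548). The CDP-diacylglycerol synthase genes themselves were not called, with differences of 0.06 for CDS1, of the endoplasmic reticulum, and -0.10 for TAM41, of mitochondria.

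Of 12 genes for cardiolipin remodelling, turnover and lipid transport in mitochondria, 2 rose and 1 fell (25% called, median 0.08). CLD1, the phospholipase that removes an acyl chain from cardiolipin ahead of Taz1, fell from 12.02 ± 0.05 to 11.86 ± 0.05 (adjusted p = 0.0254). MDM35, partner of the intermembrane space lipid carriers, rose by 0.31 (adjusted p = 0.0364), and FMP30, which is needed for normal cardiolipin levels, rose by 0.18 (adjusted p = 0.0302). The calls of CLD1, MDM35 and FMP30 were each lost without any single REF array, without D126 replicate 1 or without D126 replicate 3, with adjusted p up to 0.0915, 0.118 and 0.0997. The carrier gene UPS1 itself differed by 0.09 and PGC1, a phospholipase of phosphatidylglycerol, by -0.06, and neither was called. None of 6 genes for contacts between mitochondria and endoplasmic reticulum was called (MDM12 -0.08, MMM1 -0.07). None of 12 genes of inner membrane carriers and complexes known to bind cardiolipin was called either, with a median of 0.06 (AAC1 0.22, MIR1 0.10). Binding is meant here for the carrier or complex as a whole, not for each subunit. Of these 12 genes, 2 had an unadjusted p under 0.05.

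Of 9 genes of inositol supply and its regulators, 2 fell and none rose, 22.2% called against 21.5% of all genes (median -0.09). INO2, the activator of phospholipid genes that respond to inositol, fell from 10.04 ± 0.12 to 9.70 ± 0.06 (adjusted p = 0.00338). GIT1, a transporter of glycerophosphoinositol, fell from 8.82 ± 0.03 to 8.45 ± 0.07 (adjusted p = 0.000608). The other genes named for this list were not called: INO1 differed by 0.03, ITR2, the minor inositol transporter gene, by 0.06, INM2, the other monophosphatase gene, by -0.09, INO4, the partner of INO2, by -0.09, and the repressor gene OPI1 by 0.05.

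Downstream of phosphatidylinositol, 2 of 14 kinase and phosphatase genes rose and 2 fell (28.6% called, median 0.01). INP54, a phosphatase of phosphatidylinositol 4,5-bisphosphate, fell from 10.89 ± 0.02 to 10.56 ± 0.07 (adjusted p = 0.000969). SAC1, which removes the phosphate of phosphatidylinositol 4-phosphate, rose by 0.26 (adjusted p = 0.0163), a call lost without REF replicates 2 or 3 or D126 replicates 1 or 3 (adjusted p up to 0.0663). YMR1, a phosphatase of phosphatidylinositol 3-phosphate, rose by 0.18 (adjusted p = 0.0494), a call that held only without D12 replicate 2 or 3 among the fits that leave out an array (adjusted p up to 0.157).

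ARG82, the inositol polyphosphate multikinase gene, fell by 0.28 (adjusted p = 0.00726), the 1 called gene of 7 for inositol phosphates (14.3%, median -0.03). Of 6 transfer protein genes (33.3% called, median -0.04), SFH1 rose by 0.23 (adjusted p = 0.0217) and PDR17 fell by 0.23 (adjusted p = 0.00366). SFH1 lost its call without REF replicates 2 or 3 or D126 replicate 3 (adjusted p up to 0.084). Of 12 genes that use phosphatidylinositol for sphingolipids and GPI anchors 3 fell and none rose (25% called, median -0.04). They were CSH1 (-0.20) and KEI1 (-0.14) of sphingolipid synthesis, and GPI19 (-0.14) of GPI anchor synthesis. CSH1 kept its call whichever array was left out. KEI1 lost its call without any single REF or D126 array (adjusted p up to 0.11), and GPI19 without any single REF array, D12 replicate 1 or D126 replicates 1 or 3 (adjusted p up to 0.138).

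**Figure D5:**
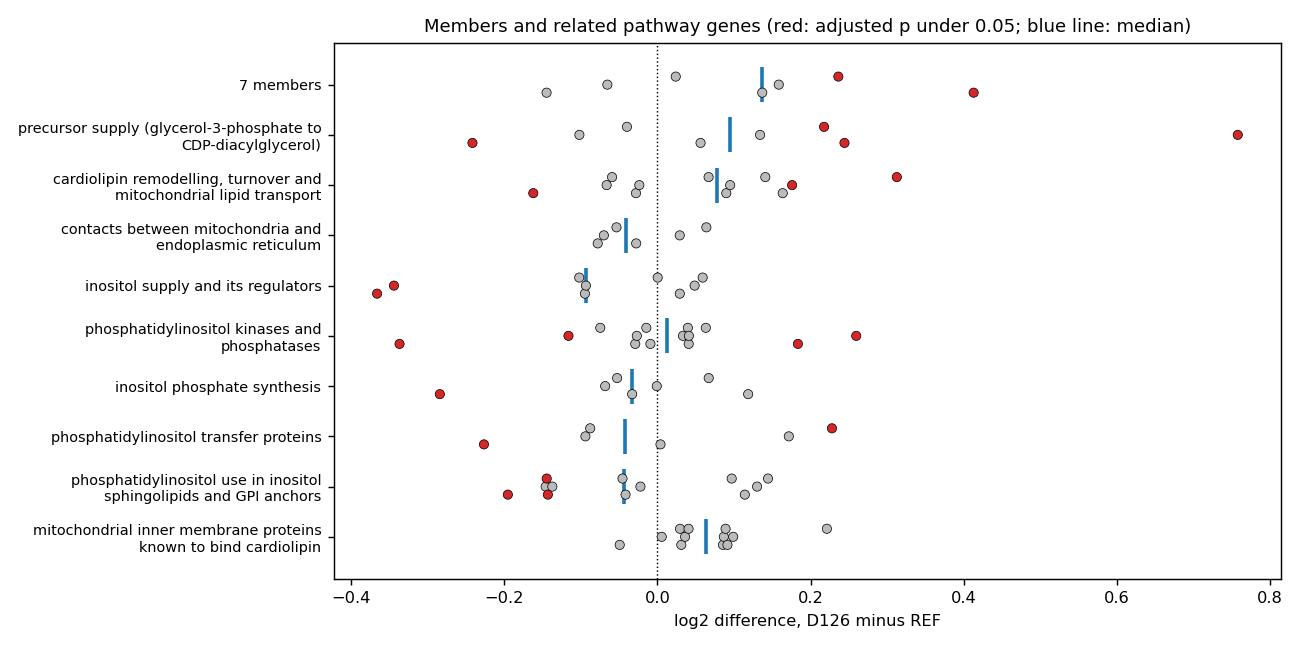
Log2 difference between D126 and REF (horizontal axis) of the 7 genes and of each list of related genes, with called genes in red and list medians in blue. Called genes lie on both sides of 0 in 4 of the 9 lists of related genes, and 2 lists hold none.

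Over all 86 related genes, 8 rose and 11 fell in D126 against REF, 22.1% called, which is close to the 21.5% of all genes. Of these 19 genes, 9 kept their calls whichever array was left out: SCT1, SLC1, GPD1, GIT1, INO2, INP54, ARG82, PDR17 and CSH1. In D126 against D12, 4 rose and 10 fell (16.3%, against 22.0% of all genes), or 7 and 8 with quantile normalization and 6 and 9 with arrays centred on their medians. In D12 against REF 0 of 86 were called, with 3 at an unadjusted p under 0.05.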

How the data were processed

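The authors deposited log2 expression values for 9 arrays, computed by RMA with affy, per the submitters' processing notes. Tool versions, probe masking and batches are not given, and probe signals were not analysed here. Deposited values ran from 2.19 to 15.51 on the log2 scale over 10928 probe sets. The platform table gives 7244 of them 1 gene, and 5498 matched the R64 gene table (used for names and neighbours) by gene identifier, for 5449 genes. The brightest probe set was used for the 47 genes with several. The background limit is the 95th percentile of 1746 probe sets of other genes.

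Strains were compared with limma 3.58.1 in R 4.3.3 (6 residual and 3.10 prior degrees of freedom, median SE 0.048). The fit was checked on simulated data with independent noise, which does not cover deviations shared between arrays or an outlying array. The number of arrays limits the precision. The named genes are the 7 of both branches, up to 3 called genes with the largest difference between D126 and REF per list (the 2 largest where none was called), INO1, INO2, INO4, OPI1, ITR2 and INM2, and, for called genes of the 7, the 5 nearest profiles and chromosomal neighbours. SCT1, CDS1, TAM41, UPS1 and PGC1 were named after their values were seen. The genes and lists were chosen with earlier results of these data known. Same-numbered REF and D126 arrays had correlated deviations (0.13 to 0.22, other numbers -0.23 to 0.05), while those of D12 did not (-0.34 to -0.02, with up to 0.30 between different numbers). Other settings tried were quantile normalization, median centring, filters, other probe sets, a variance trend, array weights, fewer arrays and a replicate block. No sequence was used here.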

Additional observations from a re-analysis of the deposited data

How the results depend on the processing

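Between D126 and REF, 2 of the 7 genes and 1173 of all 5449 genes were called in the reported fit. With all non-control probe sets tested these counts were 1 and 548, and with array weights 5 and 2615. They were 5 and 1603 with a replicate block on the REF and D126 arrays only. When each array was left out in turn they were 1 to 3 and 645 to 1539. With the replicate block over all 9 arrays they were 2 and 922, and between D126 and D12 2 and 964. PIS1 missed the threshold with all non-control probe sets (adjusted p = 0.0672), while GEP4 was called in both comparisons with D126 under every setting run (adjusted p at most 0.0242). Of the 7 genes, 2 or 3 were called between D126 and D12, and 0 between D12 and REF, under every setting. Of 385 other values of the 21 differences, 361 kept their direction and side of the threshold, 6 lost a call, 11 gained one and 7 reversed, all 7 uncalled. The reversals in D12 minus REF were TAZ1 (-0.013 with array weights, -0.014 without D12 replicate 3, and -0.014 to 0.091 over all single arrays left out) and ITR1 (0.012 with array weights, 0.038 without D12 replicate 3, and -0.073 to 0.038). Those in D126 minus D12 were PGS1 (-0.024 without D12 replicate 2, and -0.024 to 0.099) and CRD1 (0.00085 with quantile normalization, 0.015 without D12 replicate 3, and -0.060 to 0.015). The related genes called between D126 and REF were 8 with all non-control probe sets, 41 with array weights and 9 to 25 without single arrays, and between D126 and D12 they were 8, 27 and 11 to 16. The causes were not tested. Of all genes, 548 to 2615 were called between D126 and REF and 578 to 2057 between D126 and D12, with all non-control probe sets and array weights giving the lowest and highest counts, and 0 or 1 between D12 and REF.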
